A study of Mus musculus with 25 samples.

Results

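GATA1 binding locations that had a TAL1 location close by, but apart from them, were analyzed in mouse erythroid cells. They were chosen by distance alone, as GATA1 locations whose nearest TAL1 location was at least 40 and under 500 bp away. There were 1754 such locations among 10290 GATA1 locations, or 17.0%, and they are called spaced locations here. Of the remaining GATA1 locations, 3697 had TAL1 under 40 bp away and are called cooccupied, and 4839 had no TAL1 location under 500 bp.

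The locations came from ChIP-exo, in which lambda exonuclease trims immunoprecipitated DNA up to the cross-linked protein. G1E cells, of strain 129, are erythroid progenitors that lack GATA1, and G1E-ER4 cells are the same line carrying GATA1 fused to an estrogen receptor domain, which estradiol activates so that the cells mature. Antibody sc265 was used for GATA1, with 1 G1E library and, for G1E-ER4, 3 libraries each before estradiol (0 h) and after 3 and 24 h of it. Antibody sc12984 was used for TAL1, with 4 G1E libraries and, for G1E-ER4, 5 libraries before estradiol and 3 each after 3 and 24 h. The labels give the estradiol as 10 nM. Both kinds of cells thus lacked native GATA1, and G1E-ER4 cells carried only the fusion protein. The 15209 TAL1 locations and the GATA1 locations each pooled libraries and times. A GATA1 location and its TAL1 neighbor therefore cannot be told apart as bound at the same time or at different times. The lists held positions only, without tag counts, scores or replicates, so the depth behind a location is unknown, and intervals and tests cover counting of locations rather than the spread between cultures.

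GATA1 is a zinc finger protein that binds WGATAA, where W is A or T, and is required for red cell maturation. TAL1 is a basic helix-loop-helix protein that, with an E2A partner, recognizes the E-box and joins GATA1 in a complex through the bridging proteins LMO2 and LDB1. Through this complex TAL1 can be held at DNA next to a GATA1 site without a full E-box of its own.

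The first set of sequences shows spaced locations at genes for red cell functions, from 5 of the gene lists, each the location outside exons closest to a gene start among those of its list with an exact WGATAA within 40 bp and TAL1 within 200 bp. They are taken from the plus strand of mm9, 5' to 3'. Capitals mark the exact string WGATAA on either strand, the E-boxes CAGATG and CAGCTG on either strand, and TG at 7 or 8 bp upstream of WGATAA on its strand.
Fth1, chr19:10061780-10061947: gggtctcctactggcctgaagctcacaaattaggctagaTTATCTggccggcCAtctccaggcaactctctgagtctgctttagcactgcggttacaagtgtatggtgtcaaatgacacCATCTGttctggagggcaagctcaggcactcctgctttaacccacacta
Spna1, chr1:176102800-176102906: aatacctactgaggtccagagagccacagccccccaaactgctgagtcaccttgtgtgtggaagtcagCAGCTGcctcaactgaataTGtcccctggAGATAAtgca
Klf1, chr8:87425710-87425826: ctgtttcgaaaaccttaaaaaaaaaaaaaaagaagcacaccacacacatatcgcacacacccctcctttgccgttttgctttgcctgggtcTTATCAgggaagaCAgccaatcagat
Bcl2l1, chr2:152640061-152640223: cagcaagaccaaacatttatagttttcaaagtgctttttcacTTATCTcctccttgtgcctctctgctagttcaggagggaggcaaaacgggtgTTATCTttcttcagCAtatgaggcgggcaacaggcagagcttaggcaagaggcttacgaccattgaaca
Ccnd2, chr6:127095584-127095754: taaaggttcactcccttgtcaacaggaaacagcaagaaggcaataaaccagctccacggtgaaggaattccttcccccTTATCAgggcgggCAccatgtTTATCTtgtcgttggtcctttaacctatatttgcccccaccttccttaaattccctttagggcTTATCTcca

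Fth1 encodes the ferritin heavy chain, which stores iron. The GATA1 location at 10061825 was 3.5 bp from the center of the only WGATAA, and the TAL1 location at 10061902, 77 bp from it, was 0.5 bp from the center of an E-box. The location at Spna1, the gene for erythroid alpha spectrin, was 9 bp from the gene start, with WGATAA 1.5 bp from GATA1 at 176102898 and an E-box 25.5 bp from TAL1 at 176102845. At Klf1, which encodes an erythroid activator of globin genes, GATA1 was called at 87425814, 13 bp from the gene start, and TAL1 59 bp away at 87425755. The only WGATAA of that stretch was 10.5 bp from the GATA1 location and had TG upstream of it. The intronic locations at Bcl2l1, which encodes the survival factor BCL-XL, and at Ccnd2, which encodes cyclin D2, had 2 and 3 WGATAA strings, with the pairs of factors 72 and 80 bp apart. Spna1, Klf1, Bcl2l1 and Ccnd2 also had a TAL1 peak pair under 40 bp from GATA1, while Fth1 had none. A peak pair is a pair of exonuclease borders on opposite strands.

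The second set, picked later, shows every location at a listed gene with TAL1 81 to 200 bp away and an exact WGATAA within 40 bp of each factor. At these distances the windows searched around GATA1 and TAL1 do not overlap, so the sites are separate.
Zfpm1, chr8:124850151-124850348: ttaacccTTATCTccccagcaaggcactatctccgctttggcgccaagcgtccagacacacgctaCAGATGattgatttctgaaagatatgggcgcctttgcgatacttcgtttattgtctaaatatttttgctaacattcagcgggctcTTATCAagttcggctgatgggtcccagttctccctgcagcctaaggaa
Klf13, chr7:71073955-71074142: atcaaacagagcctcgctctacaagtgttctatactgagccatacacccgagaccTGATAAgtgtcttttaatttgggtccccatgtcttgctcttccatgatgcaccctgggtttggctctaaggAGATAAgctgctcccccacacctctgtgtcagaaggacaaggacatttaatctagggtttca
Fli1, chr9:32328906-32329161: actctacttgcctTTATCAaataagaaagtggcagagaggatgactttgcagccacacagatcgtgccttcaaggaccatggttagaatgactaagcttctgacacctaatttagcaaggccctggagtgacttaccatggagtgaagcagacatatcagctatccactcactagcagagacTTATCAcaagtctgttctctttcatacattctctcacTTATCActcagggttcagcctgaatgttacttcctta
Meis1, chr11:18824971-18825190: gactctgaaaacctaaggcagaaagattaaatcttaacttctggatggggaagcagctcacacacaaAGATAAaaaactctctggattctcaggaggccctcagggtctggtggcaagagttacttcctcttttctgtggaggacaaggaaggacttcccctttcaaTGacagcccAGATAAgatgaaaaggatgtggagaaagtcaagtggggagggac

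All of them were intronic. At Zfpm1, the gene for the GATA1 cofactor FOG1, the TAL1 location at 124850303 was 0.5 bp from the center of one WGATAA and the GATA1 location at 124850196 was 35.5 bp from the other, with 107 bp between the factors. At Klf13, a Kruppel-like factor gene, the factors were 97 bp apart and 12.5 and 13.5 bp from their WGATAA centers. Fli1, which encodes an ETS factor of megakaryocytes and blood progenitors, held 3 WGATAA strings with the factors 165 bp apart. In the Meis1 stretch, 129 bp separated the factors, and the WGATAA 4.5 bp from GATA1 had TG upstream. At Klf13 and Meis1 the TAL1 neighbor had another GATA1 location under 40 bp away. The TAL1 neighbors at Zfpm1 and Fli1 had no such location, but at all of these genes a GATA1 peak pair was present at the TAL1 neighbor. The Meis1 location also had a TAL1 peak pair under 40 bp from GATA1.

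Most spaced locations lay near the lower bound of the rule. The median distance to TAL1 was 68 bp, with quartiles of 51 and 111 bp. Of the 1754 locations, 682 had TAL1 at 40 to 59 bp, 351 at 60 to 79 bp and 201 at 80 to 99 bp, which left 520, or 29.65%, at 100 bp or more. Locations per base of distance numbered 34.1 at 40 to 59 bp and 0.81 from 200 to under 300 bp, and were 0.57 from 400 to under 500 bp. The counts did not break at either bound. There were 43 and 57 GATA1 locations at 38 and 39 bp from TAL1, against 39 and 39 at 40 and 41 bp. At the other end there were 0 and 1 in the last 2 bases of distance under 500 bp, and 0 and 2 at 500 bp and the next base. From 500 to under 1000 bp there were 0.522 locations per base of distance. These distances are what the rule used, and they carry no test.

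**Figure D1:**
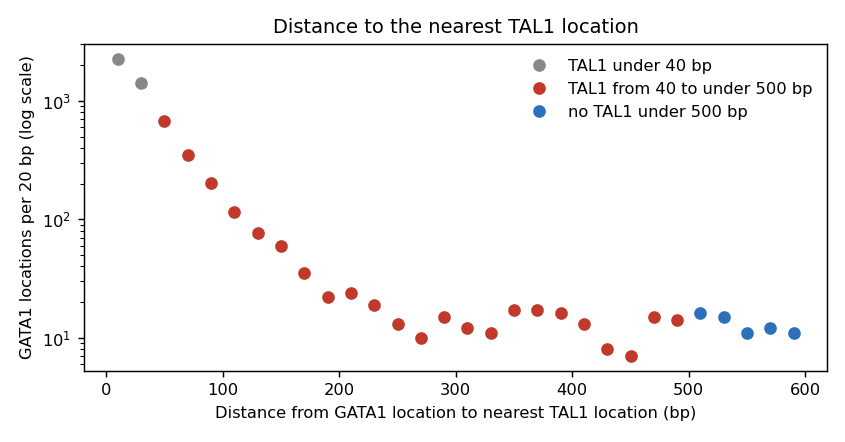
GATA1 locations in each 20 bp of distance to the nearest TAL1 location (x axis, bp; y axis, count on a log scale), colored by class. The counts fall through the bound at 40 bp and stay low from about 200 bp up to and past the bound at 500 bp.

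A single TAL1 location lay under 500 bp from 1090 of the spaced locations (62.14%), and 66 had 5 or more. TAL1 was present on both sides of 401 of them (22.86%). The nearest TAL1 locations were 1676 different ones, of which 77 served as neighbor to more than 1 spaced location. For 126 spaced locations, or 7.184%, the TAL1 neighbor had another GATA1 location under 40 bp away, which makes that pair cooccupied. Another GATA1 location was under 500 bp away from 456 spaced locations (26.0%), against 15.42% of the cooccupied and 7.915% of those without TAL1.

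Many spaced locations also had a TAL1 peak pair next to GATA1. Each final location is a call of the MultiGPS program within a 100-bp window of a peak pair. Such a pair is made of exonuclease borders on opposite strands, and the full list of TAL1 peak pairs is longer. A TAL1 peak pair lay under 40 bp from 1065 of the 1754 spaced locations, or 60.72%, against 95.24% of cooccupied locations and 7.564% of those without TAL1. The share was 80.35% with the final TAL1 location at 40 to 59 bp, 58.71% at 80 to 99 bp, 41.1% from 100 to under 200 bp and 14.69% at 200 bp or more. The pair behind a final TAL1 location can itself lie under 40 bp from GATA1, so these shares depend in part on the distance used by the rule. With TAL1 at 81 bp or more, 265 of 703 (37.7%) had such a pair that was closer to GATA1 than to the final TAL1 location. The results below are given without those locations where this changes a call.

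WGATAA was found with an 8-bp weight matrix, learned from 500 GATA1 locations drawn from all classes, within 40 bp of a location. Over all 10290 GATA1 locations the share with a site was 81.8%. Of the spaced locations 1360 of 1754 had a site, or 77.54% (95% exact binomial interval, 75.51 to 79.47%). This was below the 84.31% of the cooccupied (odds ratio 0.6423, adjusted exact p = 9.85e-09 by two-sided Fisher's exact test) and below the 81.36% of those without TAL1 (odds ratio 0.7908, adjusted exact p = 0.00145). The second difference was smaller with the exact string WGATAA (odds ratio 0.8837, adjusted exact p = 0.0513) and among GATA1 locations with no other within 500 bp (0.8608, adjusted exact p = 0.0879). In windows moved by 1000 bp from the spaced locations, 13.06% had a site. The best site read AGATAA at 735 of the 1360 (54.04%), TGATAA at 318 (23.38%) and AGATAG at 133 (9.779%), and its center was a median of 14.5 bp from the location. All p-values of motifs, sites and places were adjusted over 24 tests, and they treat locations as independent although neighbors can share a site.

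TG at 7 or 8 bp upstream of WGATAA was present at 351 of the 1360 spaced sites, or 25.81% (23.5 to 28.22%). This was between the 43.98% of cooccupied sites (odds ratio 0.443, adjusted exact p = 1.96e-30) and the 16.46% of sites without TAL1 (odds ratio 1.766, adjusted exact p = 1.17e-12). Base by base, TG stood 7 bp upstream of 11.84% of spaced sites and 8 bp upstream of 13.97%, compared with 9.265% at 6 bp and 9.191% at 9 bp. At sites without TAL1 the 4 shares ran from 7.163 to 8.458%.

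**Figure D2:**
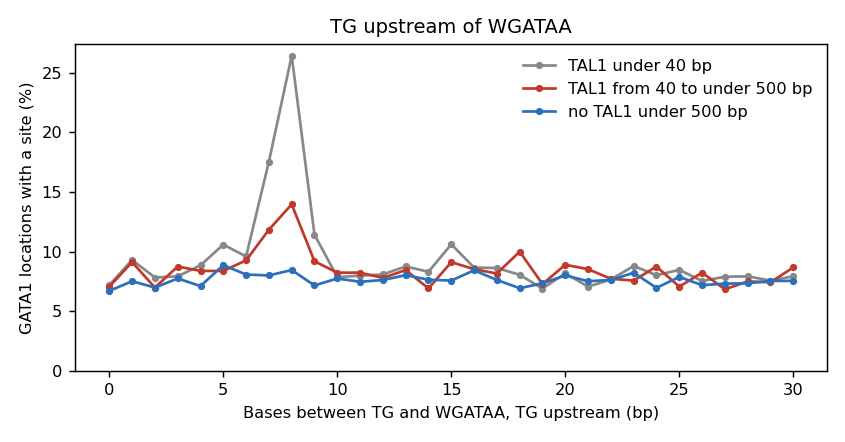
Share of GATA1 locations with a WGATAA site (y axis, percent) that have TG at each number of bases upstream of it (x axis, bp), by class. The spaced locations peak at 8 bp with 13.97%, below the 26.44% of cooccupied locations, while those without TAL1 show 8.458% there.

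The share of TG was highest where TAL1 was near the lower bound. TG was present at 32.79% of sites (28.9 to 36.87%) with TAL1 at 40 to 59 bp, at 28.15% (22.87 to 33.92%) at 60 to 79 bp, and at 19.21% (13.26 to 26.4%) at 80 to 99 bp. With TAL1 at 100 bp or more it was present at 64 of 384 sites, or 16.67%, and the odds ratio against sites without TAL1 was 1.015 (adjusted exact p = 1). Leaving out every location with a TAL1 peak pair or MultiGPS call under 40 bp gave 18.26%, against 14.53% of GATA1 sites free of any TAL1 call under 500 bp (odds ratio 1.314, adjusted exact p = 0.0691). Within 40 to 99 bp, TG was at 233 of 741 sites (31.44%) with a TAL1 peak pair under 40 bp and at 54 of 235 (22.98%) without one. At 100 bp or more the same shares were 27 of 124 (21.77%) and 37 of 260 (14.23%). Against cooccupied sites the share was lower under each of these definitions.

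The TAL1 neighbor lay more often on the upstream side of WGATAA, read on the strand of the motif. It was upstream at 755 of 1354 spaced sites, or 55.76% (53.07 to 58.43%), which differed from equal shares (adjusted exact p = 6.61e-05 by two-sided exact binomial test). Among cooccupied sites 66.93% had TAL1 upstream, as a description. By distance the upstream share was 59.71% at 40 to 59 bp, 58.74% at 60 to 79 bp and 53.33% at 80 to 99 bp. At 100 bp or more TAL1 was upstream at 188 of 384 sites (48.96%, adjusted exact p = 0.943), which turned the direction. Without locations that had a TAL1 peak pair or MultiGPS call under 40 bp it was 54.77% (adjusted exact p = 0.0691). These last 2 checks of side were chosen after seeing the data.

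**Figure D3:**
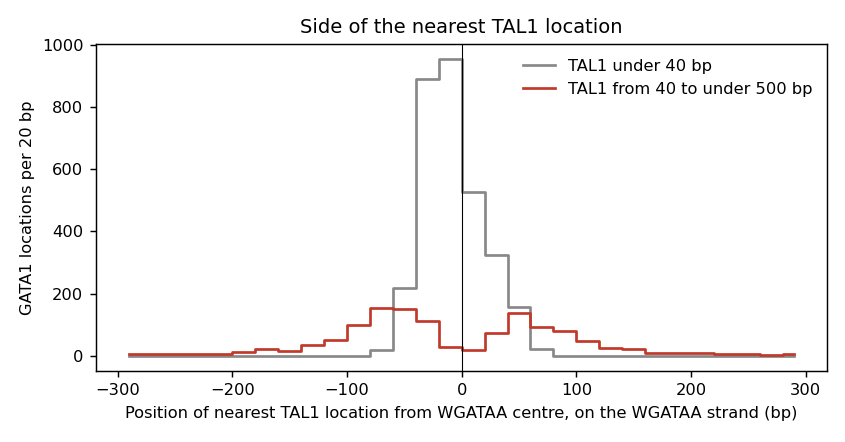
Position of the nearest TAL1 location relative to the center of WGATAA on the motif strand (x axis, bp, negative is upstream; y axis, GATA1 locations per 20 bp) for spaced and cooccupied locations. In the bin from 60 to 80 bp the spaced locations number 94 downstream, against 153 in the bin from 80 to 60 bp upstream. The counts downstream and upstream are 74 and 111 from 20 to 40 bp, and 137 and 152 from 40 to 60 bp. They are 79 and 100 from 80 to 100 bp, and 49 and 50 from 100 to 120 bp.

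The E-box was present within 40 bp of 279 spaced locations, or 15.91%, against 8.552% of the moved windows. The share was below the 23.91% of cooccupied locations (odds ratio 0.6019, adjusted exact p = 4.54e-11) and above the 12.44% of those without TAL1 (odds ratio 1.331, adjusted exact p = 0.000746). The call against those without TAL1 was lost with TAL1 at 100 bp or more (15.0%, odds ratio 1.242, adjusted exact p = 0.165) and without locations that had another TAL1 call under 40 bp (12.84%, odds ratio 1.145, adjusted exact p = 0.367). All motifs were searched on both strands, and the TG upstream of WGATAA can be the end of an E-box, so that these counts overlap.

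Motifs of Kruppel-like factors were more frequent at spaced locations than in either other class, and those of RUNX factors more frequent than without TAL1. CCNCNCCC, the form bound by Kruppel-like factors such as KLF1, was within 40 bp of 10.15% of spaced locations, against 7.682% of cooccupied ones (odds ratio 1.357, adjusted exact p = 0.00433) and 8.142% of those without TAL1 (odds ratio 1.274, adjusted exact p = 0.0173). In moved windows of the spaced locations it was in 7.754%. TGTGGT, the core bound by RUNX factors, was at 11.29% of spaced locations, against 9.031% without TAL1 (odds ratio 1.282, adjusted exact p = 0.0113) and 11.93% of the cooccupied (odds ratio 0.9395, adjusted exact p = 0.634). Its share in moved windows was 5.986%. The calls for both motifs were lost within 20 bp, without other TAL1 calls under 40 bp, and among locations with TAL1 at 100 bp or more, and the direction of RUNX against those without TAL1 turned in the last 2 of these (odds ratios 0.9714 and 0.9311). In the same 2 settings RUNX was below cooccupied locations, at 8.507% against 11.93% (odds ratio 0.6865, adjusted exact p = 0.0237) and at 8.462% (0.6825, adjusted exact p = 0.0411). With TAL1 at 100 bp or more, CCNCNCCC was still at 10.19% of 520 spaced locations. Its odds ratios there were 1.364 against cooccupied locations and 1.28 against those without TAL1 (adjusted exact p = 0.114 and 0.18 by Fisher's exact test). AGGAAG, bound by ETS factors, was at 12.37% of spaced locations and in 9.008% of moved windows. TGAGTCA or TGACTCA, bound by AP-1, was at 2.281% and in 1.197%. Neither passed the test against the other classes (adjusted exact p from 0.602 to 0.925).

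GATA1 peak pairs were more frequent around spaced locations than around those without TAL1. At least 2 GATA1 pairs lay within 100 bp of 1210 spaced locations, or 68.99%, against 44.12% without TAL1 (odds ratio 2.817, adjusted exact p = 4.79e-71) and 76.28% of cooccupied locations (odds ratio 0.6917, adjusted exact p = 5.36e-08). The share was 74.19% with TAL1 at 40 to 59 bp and 53.08% (46.11 to 59.97%) at 200 bp or more. The pair lists hold no tag counts, and whether depth of signal at a location moved with its number of pairs was not tested.

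**Figure D4:**
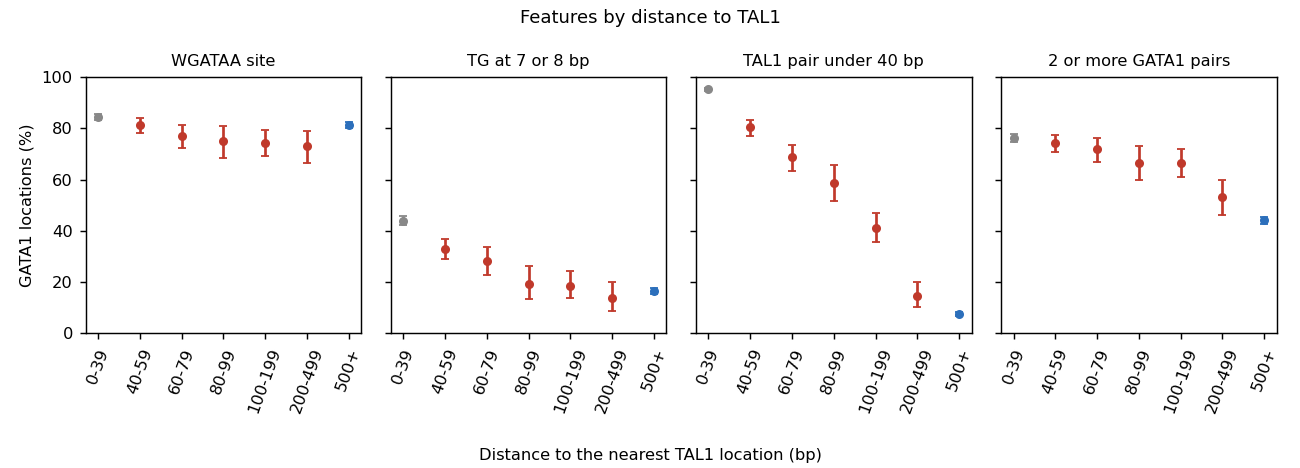
Shares of GATA1 locations (y axis, percent, with 95% exact binomial intervals) by distance to the nearest TAL1 location (x axis, bp). The panels show a WGATAA site, TG at 7 or 8 bp upstream among those with a site, a TAL1 peak pair under 40 bp, and 2 or more GATA1 peak pairs within 100 bp. TAL1 pairs go from 80.35% at 40 to 59 bp to 14.69% at 200 bp or more, and TG from 32.79 to 13.64%. The shares of TAL1 pairs depend in part on the distance itself, because final TAL1 locations were called near such pairs.

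Sites at the TAL1 end were read where the factors were at least 81 bp apart, so that both windows were separate. Of 703 such spaced locations, 288 (40.97%) had WGATAA at both ends, 232 (33.0%) at GATA1 only, 98 (13.94%) at TAL1 only and 85 (12.09%) at neither. The centers of paired sites were a median of 137 bp apart, and 147 of the 288 pairs (51.04%) pointed the same way. The 635 TAL1 neighbors at this distance were compared with 4319 TAL1 locations without GATA1 under 500 bp. TG upstream of WGATAA was at 44.9% of neighbor sites, against 60.46% (odds ratio 0.5329, adjusted exact p = 1.54e-07). The E-box was at 20.79% of neighbors, against 26.53% (odds ratio 0.7266, adjusted exact p = 0.00344), and the call was lost when the reference was TAL1 locations in clusters (22.08%, odds ratio 0.9263, adjusted exact p = 0.634). WGATAA was at 54.02% of neighbors, against 60.66% (odds ratio 0.7617, adjusted exact p = 0.0031). The direction turned against TAL1 locations in clusters, of which 47.71% had the site (odds ratio 1.287, adjusted exact p = 0.0164), and within 20 bp the odds ratio was 0.9524 (adjusted exact p = 0.749). In both comparisons with clusters only the reference was limited to TAL1 locations with another under 500 bp. The neighbors were not, and of all 1676 TAL1 neighbors 39.44% had another TAL1 location under 500 bp. Of the 522 neighbors with no GATA1 location of their own under 40 bp, 175 (33.52%) had a GATA1 peak pair there, against 17.69% of TAL1 locations without GATA1 under 500 bp, as a description. Only the neighbors were chosen for a GATA1 location under 500 bp, which comes with a GATA1 pair close to it. Part of this difference can therefore follow from the choice.

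Spaced locations were largely away from promoters. Of the 1754, 1002 (57.13%) were in introns of protein-coding genes, 693 (39.51%) between genes and 59 (3.364%) in exons. The median distance to a start site was 15372.5 bp, against 15945 bp for cooccupied locations and 10997 bp for those without TAL1. Within 1 kb of a start site were 149, or 8.495%, fewer than the 13.72% of locations without TAL1 (odds ratio 0.5837, adjusted exact p = 1.77e-08). The share of cooccupied locations was 6.897% (odds ratio 1.253, adjusted exact p = 0.0571). Split by distance to TAL1, the share of spaced locations within 1 kb of a start site ran from 7.12 to 8.955% under 300 bp. It was 9 of 73 (12.33%) from 300 to under 400 bp and 9 of 57 (15.79%) from 400 to under 500 bp. Neither comparison of intron shares passed the test over all spaced locations (adjusted exact p = 0.114 against cooccupied and 0.849 against no TAL1). Against cooccupied locations it passed without locations that had another TAL1 call under 40 bp (59.55% against 54.61%, odds ratio 1.224, adjusted exact p = 0.0394) and among isolated GATA1 locations (58.71% against 55.13%, odds ratio 1.157, adjusted exact p = 0.0489). The median GC content of 201 bp around the location was 46.27% for spaced, 47.76% for cooccupied and 45.27% for locations without TAL1.

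A spaced location was in the body or within 10 kb of 1358 of 22238 protein-coding genes, or 6.11%. Among 94 genes of 7 erythroid lists there were 34 (36.2%), and among 36 genes of muscle, liver and neuron lists there were 0, which became 1 muscle and 1 liver gene within 50 kb. The erythroid genes were longer, with a median of 23.7 kb against 15.5 kb for all genes. Of the 94, 67 also had a cooccupied location, against 2461 of the 22238 protein-coding genes. A GATA1 location without TAL1 was at 48 of the 94, against 3513 of the 22238. These counts are a description, since the part of gene length and of overall GATA1 binding in them was not tested.

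**Figure D5:**
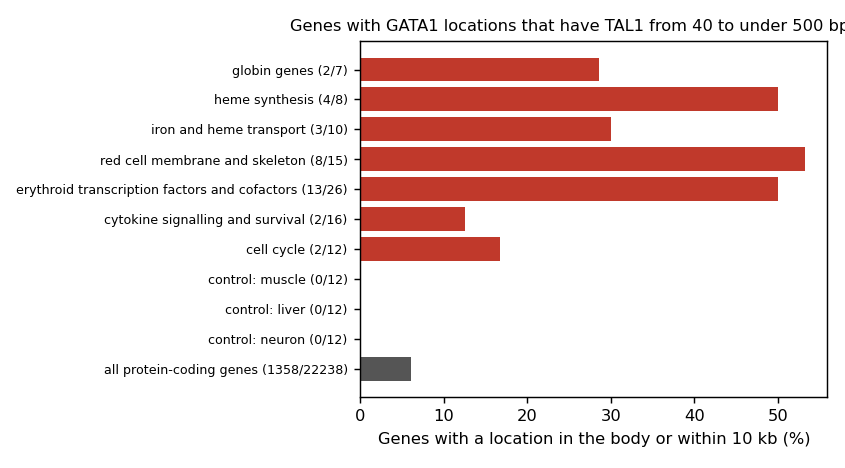
Share of the genes of each list with a spaced location in the gene body or within 10 kb (x axis, percent; counts beside each name). Heme synthesis, red cell membrane and skeleton, and erythroid transcription factors have 4 of 8, 8 of 15 and 13 of 26 genes, and the control lists have 0 genes, against 6.11% of all protein-coding genes.

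In the heme pathway 4 of 8 genes had a spaced location. Those at Ppox and Fech lay close to the gene starts, at 483 and 367 bp. Ppox and Fech encode the last enzymes of the pathway, which oxidize protoporphyrinogen and insert iron, and their TAL1 neighbors were 203 and 469 bp away. At Cpox, for coproporphyrinogen oxidase, the location was 8279 bp from the start, had no WGATAA site, and had 5 TAL1 locations under 500 bp with the nearest at 61 bp. All 8 genes of this list had a cooccupied location as well.

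Among the 7 globin genes, the adult beta globin genes had one each. The location at Hbb-b1 was on chromosome 7 at 110976616, 6 bp from the gene start, with TAL1 56 bp away at 110976560. That at Hbb-b2 was 2335 bp from its start, with TAL1 70 bp away and TG at 7 or 8 bp upstream of its WGATAA. These genes are near-identical copies, and reads that map to both were not kept by the authors, so positions there are uncertain. For iron and heme transport 3 of 10 genes had one. Besides Fth1 they were Slc25a38, for a mitochondrial glycine carrier of heme synthesis, with TAL1 43 bp away, and Abcb10, for a mitochondrial transporter, with TAL1 124 bp away and 6 TAL1 locations under 500 bp.

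Of 15 genes for the red cell membrane and its skeleton, 8 had a spaced location. Rhag, which encodes the Rh-associated glycoprotein, had 2, with TAL1 59 and 338 bp away, and no GATA1 location of either other class within 10 kb. At Add1 and Add2, the adducin genes that cap actin filaments, TAL1 was 81 and 53 bp away. Only the location at Add2 had a WGATAA site within 40 bp of GATA1, and only that at Add1 had one within 40 bp of TAL1. The location at Kel, for the Kell blood group protein, fell in an exon on chromosome 6 at 41654334, 4 bp from the gene start and 71 bp from TAL1. Rhd and Slc4a1 were picked later. Their locations were 37 bp from the start of Rhd, for the Rh blood group protein, with TAL1 69 bp away, and near Slc4a1, for the band 3 anion exchanger, with TAL1 61 bp away.

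Of 26 erythroid transcription factors and cofactors 13 had a spaced location, with 21 locations in all. A cooccupied location was at 23 of the 26, and one without TAL1 at 16. Zfpm1 had 3 spaced locations, with TAL1 63, 107 and 90 bp away, and the last had no WGATAA site. Within 10 kb of Zfpm1 there were also 8 cooccupied locations and 8 without TAL1. Meis1, a homeobox gene of blood progenitors, had 3 spaced locations too, at 40, 129 and 102 bp from TAL1. It had 1 cooccupied location and 3 without TAL1 within 10 kb. Erg and Fli1, both ETS factor genes, had 2 spaced locations each, with TAL1 149 and 40 bp away for Erg and 41 and 165 bp for Fli1. The location at Lmo2, the gene for the bridge between TAL1 and GATA1, was on chromosome 2 at 103798043, 100 bp from the start, with TAL1 58 bp away. Picked later, Gfi1b, for a repressor of erythroid cells, had one 61 bp from its start with TAL1 72 bp away. It had no WGATAA site within 40 bp of GATA1, but one within 40 bp of TAL1. Tal1 itself, picked later too, had one 168 bp from its start with TAL1 251 bp away.

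In the cytokine signaling list 2 of 16 genes (12.5%) had a spaced location, and in the cell cycle list 2 of 12 (16.7%), against 6.11% of all genes. Kit, for the stem cell factor receptor, had 2 intronic locations. The one 5231 bp from the start had TAL1 143 bp away, and the one at 33332 bp had it 67 bp away. Bcl2l1 also had 2, with TAL1 83 and 72 bp away. Ccnd3, for cyclin D3, had 2, with TAL1 50 and 44 bp away, and Ccnd2 had 1. Within 50 kb instead of 10 kb, 8 cytokine genes and 4 globin genes had a spaced location, as did 1 muscle gene and 1 liver gene of the control lists, against 3011 of all genes.

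Spaced locations were spread over many genes. The closest start site belonged to 1367 genes, 1065 of them with a single location. Rere, for a nuclear corepressor, had 6 of its 19 GATA1 locations in this class, and Gmpr, for guanosine monophosphate reductase, had 5 of 10. Another 10 genes had 4 each. With all their GATA1 locations in parentheses, they were Armc9 (7), Fyb (15), Itgb3 (6), Klf13 (26), Mast4 (6), Nck2 (16), Pdcd4 (11), Pde4d (16), Zeb2 (14) and Zfp217 (16). Over all GATA1 locations the share of spaced ones was 17.0%.

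In the Gmpr intron on chromosome 13, 4 spaced locations lay within 615 bp, the only group of 4 under 500 bp from one to the next. GATA1 was called at 45622632, 45622833, 45623117 and 45623247, and TAL1 between them at 45622783 and after them at 45623297. The distances to TAL1 were 151, 50, 180 and 50 bp, so each TAL1 location was the neighbor of a pair. At Rere a single TAL1 location at 149747899 lay between GATA1 at 149747604 and 149747983, 295 and 84 bp away. Over the genome, 197 spaced locations (11.23%) formed 95 groups of 2 or more, and 89 of these were pairs.

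The spaced location with the most TAL1 locations was on chromosome 4 at 114768335, closest to Pdzk1ip1 and 39304 bp from the start of Tal1. There were 12 TAL1 locations between 114768079 and 114768794, on both sides of it, and the nearest was 55 bp away. The next 2 were on chromosome 5 at 121666080, closest to Gm15800 and with 10 TAL1 locations, and on chromosome 3 at 60589621, closest to Gm8325 and with 9. None of the 3 had a WGATAA site within 40 bp of GATA1 by the matrix, and each had a TAL1 peak pair under 40 bp. Those on chromosomes 5 and 3 had a site within 40 bp of the nearest TAL1 location, and that on chromosome 4 had none there. These 3 were chosen by the number of TAL1 locations, which is a description.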

How the data were processed

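GATA1 and TAL1 ChIP-exo locations of G1E and G1E-ER4 cells were used as deposited. The authors aligned reads to mm9 (Bowtie 1.00, BWA 0.6.2 and 0.7.9a per the submitters' processing notes, after CASAVA 1.7 and bcl2fastq 2.15), kept uniquely mapped reads, merged replicates, called peak pairs and MultiGPS locations, and intersected them. The deposited values are single-base positions, with no counts or scores. The study's text describes the GATA1 calls as made from G1E-ER4 libraries, whereas the labels also link the G1E library to these lists, and the positions do not show which holds. The estradiol dose of the labels differs from that in the study's methods.

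Distances were taken to the nearest TAL1 location. The weight matrix came from 30 rounds of expectation maximization (pseudocount 1), and sites were called at a match threshold of 0.001. Genes were those of GENCODE vM1, with 45974 start sites, and positions fell within all 20 chromosomes. Of 132 listed genes 130 were in the annotation. Genes named are, in each list, the 4 or fewer holding most spaced locations (ties by name), the 5 genes closest to the most locations with ties, up to 2 locations per list closest to a gene start, and the 3 locations with the most TAL1. Groups were compared by two-sided Fisher's exact tests or an exact binomial test, with Benjamini-Hochberg adjustment over 24 tests, and 0.05 as the threshold. The members and gene lists were chosen with earlier results of these data known. The counting was checked on simulated data. Some items are not reported here. Python 3.11.15, numpy 2.4.6, scipy 1.17.1, pysam 0.24.0 and matplotlib 3.10.9 were used.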

Additional observations from a re-analysis of the deposited data

How the results depend on the processing

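Over 130 recomputed values, 99 kept their direction and side of the threshold, 16 lost the call, 4 gained one and 11 reversed, and the cause was not tested. Values are odds ratios, with spaced locations against the class named. With TAL1 at 100 bp or more, calls were lost against no TAL1 for TG (1.015), E-box (1.242) and KLF (1.28) and against cooccupied locations for KLF (1.364). RUNX gained one against cooccupied locations (0.6825). Reversed there were RUNX (0.9311), AP-1 (0.9467) and intron (0.9694) against no TAL1, ETS against cooccupied (1.01), and the side of TAL1 (0.9592 upstream to downstream). With TAL1 from 40 to under 250 bp, AP-1 against no TAL1 reversed (0.9834). Without other TAL1 calls under 40 bp, calls were lost against no TAL1 for TG (1.314), E-box (1.145) and KLF (1.209), against cooccupied for KLF (1.291), and for side (1.211). RUNX (0.6865) and intron (1.224) gained calls against cooccupied, and RUNX against no TAL1 reversed (0.9714). Within 20 bp, calls were lost for KLF (1.184 and 1.168), RUNX (1.251) and WGATAA at the TAL1 neighbor (0.9524), and ETS (1.112) and AP-1 (0.9444 and 0.778) reversed. WGATAA against no TAL1 lost its call with the exact string (0.8837) and among isolated locations (0.8608), where intron against cooccupied gained one (1.157). Against clustered TAL1, with the neighbors not limited to clusters, WGATAA at the neighbor reversed (1.287) and the E-box call was lost (0.9263).

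The 4 alternatives for side by distance, isolation and other TAL1 calls were chosen after seeing the data. No paired analysis was possible because the lists pool all libraries and hold no replicate. For the same reason no library was left out. The planned comparison of repeats was not run. Depth is unknown, and TAL1 at GATA1 below the limit of calling was not detectable.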
